A study of Homo sapiens with 6 samples.

Results

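The genes described here are 10 WNT pathway genes out of the 28395 genes in the count table: the receptors ROR1 and ROR2, the receptors LGR4, LGR5 and LGR6, the ubiquitin ligases RNF43 and ZNRF3, and the secreted factors DKK1, DKK2 and DKK3. Each was found in the table by its NCBI gene identifier, and all 10 were present and passed the filter on low counts. RNF43 passed it only through its reads in WT libraries, and LGR6 and DKK2 only through theirs in NUAK2-CR libraries. The filter itself thus favours a difference in these genes. The 10 genes were chosen by family, with the fold changes and adjusted p-values of the WT and NUAK2-CR comparison on these same libraries known. Of them, 6 had passed the thresholds of that comparison for a differentially expressed gene (DEG). The differences of the 10 genes are therefore given as a description, with no test. Where one of them is said to pass or miss a threshold, this describes the fit and is not read as a test.

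The libraries came from U251MG, an established human cell line labelled as glioblastoma astrocytoma, and were bulk RNA-sequencing libraries of polyadenylated RNA. WT and NUAK2-CR cells gave 3 libraries each, and in NUAK2-CR cells the gene of the serine/threonine kinase NUAK2 had been targeted with CRISPR-Cas9. The nuclease and the guides were delivered by lentiviral vectors carrying GFP and mCherry, and double-positive cells were sorted singly and grown into clones. The labels name no clone, a legend of the study names clone CR-3 for a gene set analysis of WT against NUAK2-targeted U251 cells, and a difference between NUAK2-CR and WT cells cannot be told apart from a difference between one clone and the parental line. The study speaks of independent experiments in general, but neither its methods nor the labels say of these libraries that they came from separate cultures, so the p-values given below for other genes measure the spread between these libraries, which may be technical.

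WNT ligands act on cells through Frizzled receptors and a set of partner receptors. With the co-receptors LRP5 and LRP6 they stabilise beta-catenin, while ROR1 and ROR2 are receptor tyrosine kinase-like proteins that bind WNT5A and act mainly on cell polarity and movement. RNF43 and ZNRF3 are membrane E3 ligases that mark Frizzleds for removal from the cell surface, R-spondins bound to LGR4, LGR5 or LGR6 draw these ligases away and so keep Frizzleds in place, and DKK1 and DKK2 are secreted proteins that bind LRP5 and LRP6.

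Counts summed over genes ranged from 35310946 to 55574081 in the WT libraries and from 29648445 to 33776712 in the NUAK2-CR libraries. The targeted NUAK2 transcript stood at 1654 ± 243 normalized counts in WT and fell to 869.5 ± 83.2, or 52.6% of that level, in NUAK2-CR cells (SD, n = 3; edgeR adjusted p = 1.8e-05). Normalized counts are read counts scaled with edgeR's TMM factors to a common library size. Of 10 astrocytoma markers, 9 had more than 3 counts in every library and OLIG2 had none, and their summed level was 337442 to 374731 normalized counts in WT against 152416 to 159883 in NUAK2-CR libraries. Of the 9 tested, 7 were lower in NUAK2-CR, GFAP, NES and CD44 among them, EGFR was higher (3547 against 5757 normalized counts, edgeR adjusted p = 1.92e-05), and SOX9 did not pass the test (edgeR adjusted p = 0.159). A list of 14 markers of immune, endothelial, neuronal, oligodendroglial, epithelial and liver cells summed to 700.1 to 921.3 normalized counts in WT and 1541 to 1766 in NUAK2-CR libraries, with CD3E and MOG at 0 in every library and 8 or 9 of 14 above 3 counts in a library. Its members moved both ways: the neuronal SNAP25 rose from 64.6 to 754 and SYT1 from 458 to 715 normalized counts, which makes up most of the higher sum, PECAM1 rose from 0.44 to 15.8, and the endothelial KDR fell from 251.1 to 106, all 4 with an edgeR adjusted p under 0.05. The part of these shifts in the values of the 10 genes was not tested, and in bulk RNA fewer cells expressing a gene and less RNA per cell cannot be told apart.

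NUAK2-CR cells differed from WT cells within each of the families. ROR1 was 4.03-fold higher and ROR2 13.4-fold lower, LGR4 and LGR5 were lower and LGR6 was higher, RNF43 had no reads left while ZNRF3 stayed within 1.08-fold, and DKK2 was 14.2-fold higher while DKK1 and DKK3 were within 1.28-fold. In the fit across all 14873 genes tested, 9 of the 10 had an adjusted p under 0.05, against 54.5% of all tested genes; 5 were higher in NUAK2-CR (26.3% of all tested genes) and 4 lower (28.2%). DEGs had in addition an absolute log2 fold change over 2, and 6 of the 10 were DEGs, against 4.72% of all tested genes; 3 were higher (1.89%) and 3 lower (2.83%). The WT and NUAK2-CR libraries did not overlap for 9 of the 10, against 61.4% of all tested genes. Since this contrast chose the genes, and RNF43, LGR6 and DKK2 passed the filter only through their higher group, nothing is read from these counts. The median log2 fold change over the 10 genes was 0.17, beside -0.01 over all tested genes.

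**Figure D1:**
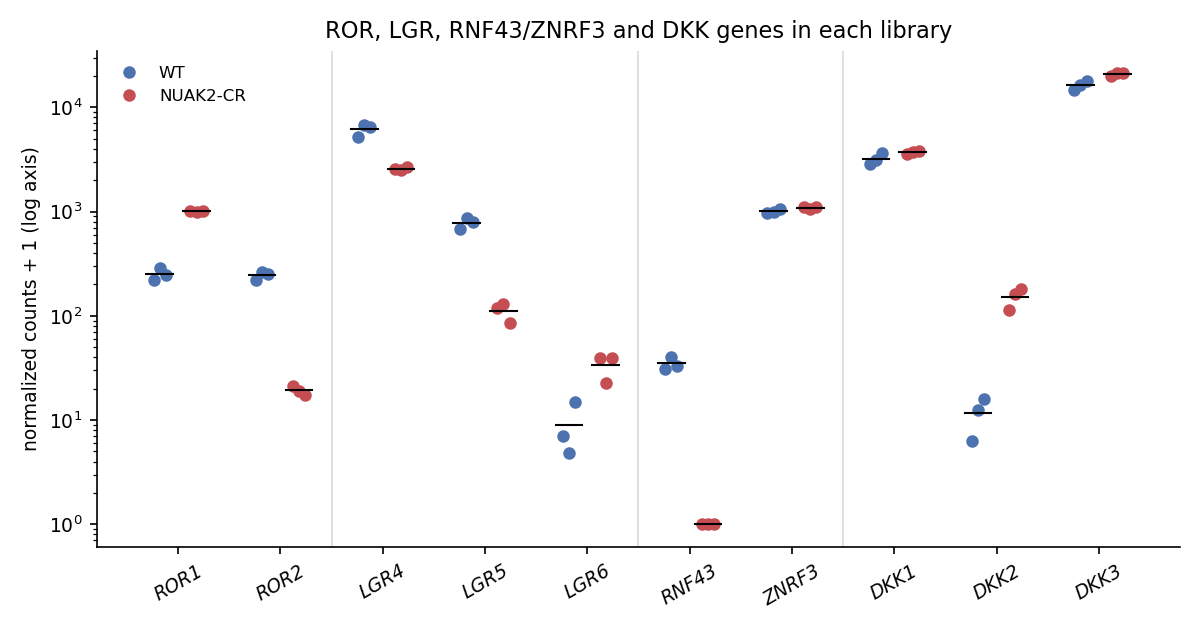
Normalized counts of the 10 genes in each library (log axis), plotted as normalized count plus 1 so that 0 can be drawn, with 3 points per group and a line at the mean. ROR1, LGR6 and DKK2 are higher and ROR2, LGR4, LGR5 and RNF43 lower in all 3 NUAK2-CR libraries, RNF43 is at 0 in NUAK2-CR, and the DKK1 points of the groups overlap.

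The stretches upstream of 4 of the genes are shown first, because ROR1, ROR2 and RNF43 differed strongly or had no reads left in NUAK2-CR cells and DKK1 carries matches to WNT and Hippo motifs. Each is the 250 bases before an annotated start in RefSeq on GRCh38.p14, written 5′ to 3′ on the strand of the gene, and 6 of the 10 genes had a start in the table used, with 9 windows in all. In the first 3 sequences the capitals mark CpG dinucleotides. The ROR1 window is chr1:63773767-63774016 (plus strand), that of ROR2 is chr9:91950229-91950478 (minus strand), and that of RNF43 is chr17:58417535-58417784 (minus strand).
ROR1: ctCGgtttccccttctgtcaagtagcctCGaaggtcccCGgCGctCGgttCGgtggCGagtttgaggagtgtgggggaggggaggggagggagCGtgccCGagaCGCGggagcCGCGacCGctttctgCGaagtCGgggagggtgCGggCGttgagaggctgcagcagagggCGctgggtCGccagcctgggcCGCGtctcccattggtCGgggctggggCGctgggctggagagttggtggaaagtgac
ROR2: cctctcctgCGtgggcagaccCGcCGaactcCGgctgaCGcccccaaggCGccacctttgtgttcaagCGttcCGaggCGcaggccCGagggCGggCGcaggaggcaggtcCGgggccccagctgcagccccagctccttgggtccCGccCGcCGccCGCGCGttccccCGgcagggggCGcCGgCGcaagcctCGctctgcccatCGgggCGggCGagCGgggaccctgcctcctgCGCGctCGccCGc
RNF43: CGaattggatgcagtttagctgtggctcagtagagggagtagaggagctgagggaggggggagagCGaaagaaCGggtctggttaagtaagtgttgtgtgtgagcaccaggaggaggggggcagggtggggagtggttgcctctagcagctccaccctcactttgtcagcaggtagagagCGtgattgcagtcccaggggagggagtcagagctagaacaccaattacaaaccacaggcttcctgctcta

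The ROR2 window held 32 CpG dinucleotides at a GC content of 78.0%, and the ROR1 window 24 at 69.2%, while the RNF43 window held 4 at 56.0%. Over 35116 promoter windows of the same length the median was 11 CpG dinucleotides, with quartiles of 3 and 23, and the median GC content was 58.0%. The ROR genes thus both have CpG-rich starts, although ROR1 was higher and ROR2 lower in NUAK2-CR cells. LGR4 had 14 CpG dinucleotides, and the 3 annotated starts of LGR6 had 8, 2 and 4.

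The windows were also searched on both strands for CTTTGA (reverse complement TCAAAG), a core bound by the TCF/LEF partners of beta-catenin, and for GGAATG (reverse complement CATTCC), a core bound by the TEAD partners of YAP and TAZ. The motifs do not overlap each other. CTTTGA was found in 11.2% and GGAATG in 11.9% of the 35116 windows. In the sequences below the capitals mark these matches. The DKK1 window is chr10:52314031-52314280 (plus strand), and that of a second RNF43 start is chr17:58402722-58402971 (minus strand).
DKK1: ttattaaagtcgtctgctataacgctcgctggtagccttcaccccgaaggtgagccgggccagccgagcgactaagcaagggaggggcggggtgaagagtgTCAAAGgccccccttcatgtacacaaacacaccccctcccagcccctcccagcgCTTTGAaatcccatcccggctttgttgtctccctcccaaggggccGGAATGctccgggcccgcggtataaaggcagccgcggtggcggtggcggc
RNF43 second start: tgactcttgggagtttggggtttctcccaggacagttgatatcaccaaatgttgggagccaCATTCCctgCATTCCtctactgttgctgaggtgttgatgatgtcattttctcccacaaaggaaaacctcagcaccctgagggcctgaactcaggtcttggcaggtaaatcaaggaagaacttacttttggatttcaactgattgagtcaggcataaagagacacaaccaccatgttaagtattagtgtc

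The DKK1 window held 2 TCF/LEF cores, beginning at -149 and -95 from the start, and 1 TEAD core at -50. The second RNF43 window held 2 TEAD cores, at -189 and -180, and no CpG dinucleotide. Neither motif was found in the ROR1, ROR2, LGR4 and LGR6 windows or in the first RNF43 window. A match of these letters is a description of the window and is not evidence of binding in these cells.

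ROR1 (gene 4919, chromosome 1, 63774017 to 64181498 on GRCh38) is a receptor for WNT5A with little expression in most adult tissue. It was at 218, 287 and 243 normalized counts in WT replicates 1, 2 and 3 and at 1004, 983 and 1022 in NUAK2-CR replicates 1, 2 and 3. The lowest NUAK2-CR library lay 3.43-fold above the highest WT library, and the NUAK2-CR libraries sat within a few percent of each other. The means were 249 ± 34.7 and 1003 ± 19.6 (SD, n = 3), a log2 fold change of 2.01 (SE 0.11). This value lay at the DEG threshold of 2, and it fell to 1.93 without WT replicate 1 and to just under 2 without WT replicate 3.

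ROR2 (gene 4920, chromosome 9, 91722601 to 91950228) is the other member of the pair, best known for its part in skeletal development and planar polarity. Its normalized counts were 221, 262 and 252 in WT and 20.3, 18.1 and 16.5 in NUAK2-CR libraries, which rest on 332, 272 and 234 reads and on 16, 15 and 15 reads. The NUAK2-CR libraries held 7.47% of the WT level and none came near the WT range. The log2 fold change was -3.74 (SE 0.22), from 245 ± 21.7 to 18.3 ± 1.93 (SD, n = 3).

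Without division by length, ROR1 was 50.3% of the ROR reads in WT and 98.2% in NUAK2-CR libraries, so the pair was even in WT by reads. Counted per kilobase of transcript, so that the genes can be set side by side, ROR1 made up 41.9% ± 1.59 (SD, n = 3) of the ROR reads in WT and 97.5% ± 0.28 in NUAK2-CR libraries. This share is taken within a library and does not depend on how libraries are scaled. The sum of the pair was 2.70 ± 0.29 CPM (counts scaled to the size of the library) per kilobase in WT and 4.68 ± 0.09 in NUAK2-CR, 1.73-fold higher, and the libraries of the groups did not overlap.

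LGR4 (gene 55366, chromosome 11, 27365961 to 27472790) is the most widely expressed of the R-spondin receptors. Its normalized counts were 5232, 6737 and 6509 in WT and 2573, 2501 and 2674 in NUAK2-CR libraries. All NUAK2-CR libraries were lower, at 41.9% of the WT mean, with means of 6159 ± 811 and 2583 ± 87.0 (SD, n = 3) and a log2 fold change of -1.25 (SE 0.09).

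LGR5 (gene 8549, chromosome 12, 71439129 to 71586310) marks stem cells of the intestine and other epithelia and is itself a WNT target there. It was at 686, 864 and 787 normalized counts in WT and at 117, 130 and 84.5 in NUAK2-CR libraries. NUAK2-CR cells held 14.2% of the WT mean, a larger difference than for LGR4, the lowest WT library lying 5.27-fold above the highest NUAK2-CR library. The log2 fold change was -2.82 (SE 0.16), from 779 ± 89.3 to 111 ± 23.5 (SD, n = 3).

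LGR6 (gene 59352, chromosome 1, 202193799 to 202319761), known from stem cells of the hair follicle, was scarce throughout. Only 9, 4 and 13 reads were counted in WT and 30, 18 and 35 in NUAK2-CR libraries, or 5.98, 3.86 and 14.0 against 38.1, 21.7 and 38.4 normalized counts. NUAK2-CR libraries were higher without overlap, but the WT libraries spread over a wide range for so few reads. The log2 fold change was 2.08 (SE 0.50), and it ranged from 1.77 to 2.67 when each library was left out in turn. It came under the DEG threshold when WT replicate 1 (1.89) or 2 (1.77) or NUAK2-CR replicate 1 (1.98) or 3 (1.94) was left out, and also with a prior count of 2 (1.84).

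LGR4 remained the main R-spondin receptor in both groups. It made up 87.2% ± 0.39 (SD, n = 3) of the LGR reads per kilobase in WT and 93.7% ± 0.81 in NUAK2-CR libraries. LGR5 went from 12.7% ± 0.47 to 4.61% ± 1.09, and LGR6 from 0.16% ± 0.10 to 1.70% ± 0.47. The sum of the 3 receptors was 35.9 ± 4.62 CPM per kilobase in WT and 14.0 ± 0.37 in NUAK2-CR, 0.39 of the WT level, so the difference in LGR6 was small beside those of the other two.

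**Figure D2:**
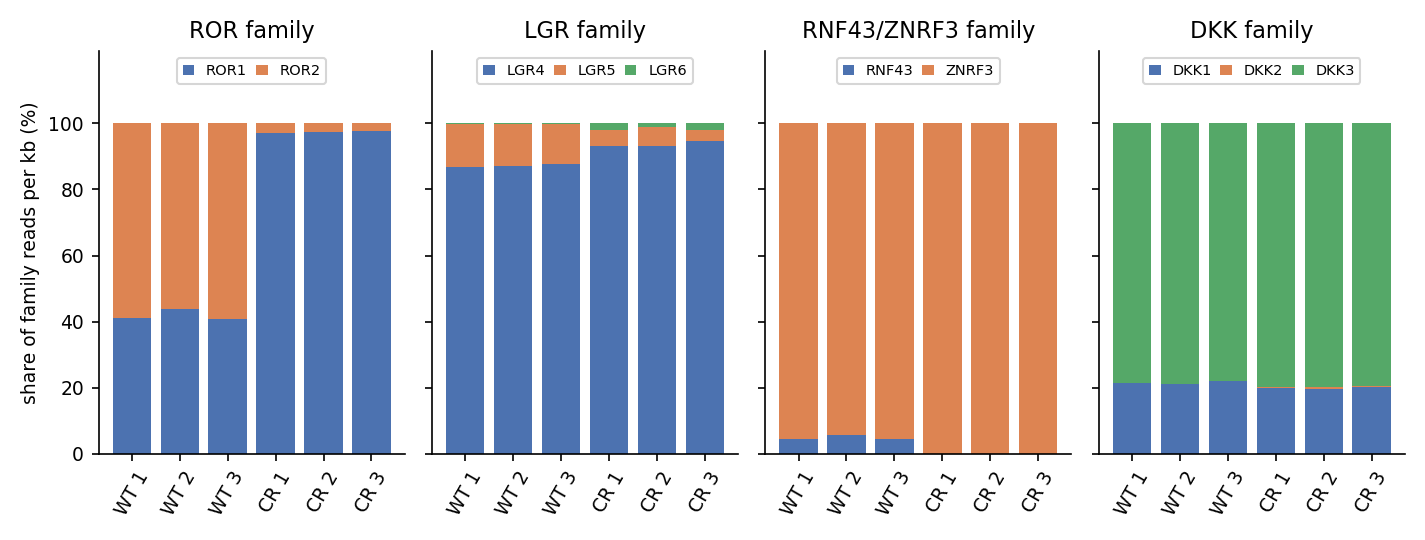
Share of each gene in the reads per kilobase of its family (percent, stacked to 100), with 1 bar per library, WT on the left and NUAK2-CR (CR) on the right of each panel. On average ROR1 goes from 41.9% to 97.5% of the ROR reads and LGR5 from 12.7% to 4.61% of the LGR reads, while DKK3 stays at 78.4% and 79.7% of the DKK reads.

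RNF43 (gene 54894, chromosome 17, 58352500 to 58417534) is a membrane E3 ligase that lowers the number of Frizzleds on the surface. It had 45, 41 and 30 reads in WT libraries, or 29.9, 39.6 and 32.2 normalized counts, and 0 reads in each NUAK2-CR library. A count of 0 still allows up to 3 reads in a library. Set against that floor, applied in each library, the NUAK2-CR level lay at least 9.49-fold lower than the WT mean of 33.9 ± 5.04 (SD, n = 3). The floor covers counting error only. The gene was already at a low level in WT.

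ZNRF3 (gene 84133, chromosome 22, 28883572 to 29057488), the related ligase, was at 976, 992 and 1050 normalized counts in WT and at 1100, 1053 and 1114 in NUAK2-CR libraries. The lowest NUAK2-CR library lay just above the highest WT library, so the groups touched without overlapping. The means of 1006 ± 39.2 and 1089 ± 32.1 (SD, n = 3) gave a log2 fold change of 0.12 (SE 0.08), and ZNRF3 was the gene of the 10 without an adjusted p under 0.05.

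RNF43 was 4.87% ± 0.73 (SD, n = 3) of the ligase reads per kilobase in WT and 0% in NUAK2-CR libraries. The sum of the ligases was 4.10 ± 0.15 CPM per kilobase in WT and 4.22 ± 0.12 in NUAK2-CR, a ratio of 1.03 with overlapping libraries, so without RNF43 reads the ligase total was still within its spread.

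DKK1 (gene 22943, chromosome 10, 52314281 to 52317657) is the founding inhibitor of LRP5 and LRP6 and a target of beta-catenin in many cells. It was at 2882, 3119 and 3612 normalized counts in WT and at 3599, 3731 and 3828 in NUAK2-CR libraries. WT replicate 3 exceeded the lowest NUAK2-CR library, the one overlap among the 10 genes. The log2 fold change was 0.22 (SE 0.08), and the adjusted p was no longer under 0.05 in 5 of the 6 fits that left out a library, all but the one without WT replicate 3.

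DKK2 (gene 27123, chromosome 4, 106921802 to 107036313), which can inhibit or weakly activate the pathway depending on the receptors present, had 8, 12 and 14 reads in WT and 89, 134 and 163 in NUAK2-CR libraries. In normalized counts these were 5.31, 11.6 and 15.1 against 113, 162 and 179. The lowest NUAK2-CR library stood 7.51-fold above the highest WT library. The log2 fold change was 3.89 (SE 0.36), from 10.7 ± 4.93 to 151 ± 34.2 (SD, n = 3), the largest upward difference of the 10.

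DKK3 (gene 27122, chromosome 11, 11963036 to 12009745) is the divergent member of its family and does not act through LRP5 and LRP6 as DKK1 does. It was at 14801, 16239 and 17847 normalized counts in WT and at 20185, 21189 and 21174 in NUAK2-CR libraries. NUAK2-CR libraries were all above WT, 1.28-fold higher on average, with means of 16296 ± 1524 and 20849 ± 576 (SD, n = 3) and a log2 fold change of 0.36 (SE 0.08).

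The 14.2-fold difference in DKK2 hardly altered the makeup of the family. DKK3 was 78.4% ± 0.47 (SD, n = 3) of the DKK reads per kilobase in WT and 79.7% ± 0.24 in NUAK2-CR, DKK1 was 21.5% ± 0.46 and 19.9% ± 0.21, and DKK2 was 0.03% ± 0.01 and 0.40% ± 0.08. The family summed to 219 ± 21.6 CPM per kilobase in WT and 276 ± 7.90 in NUAK2-CR, 1.26-fold higher, with most of that difference coming from DKK3.

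**Figure D3:**
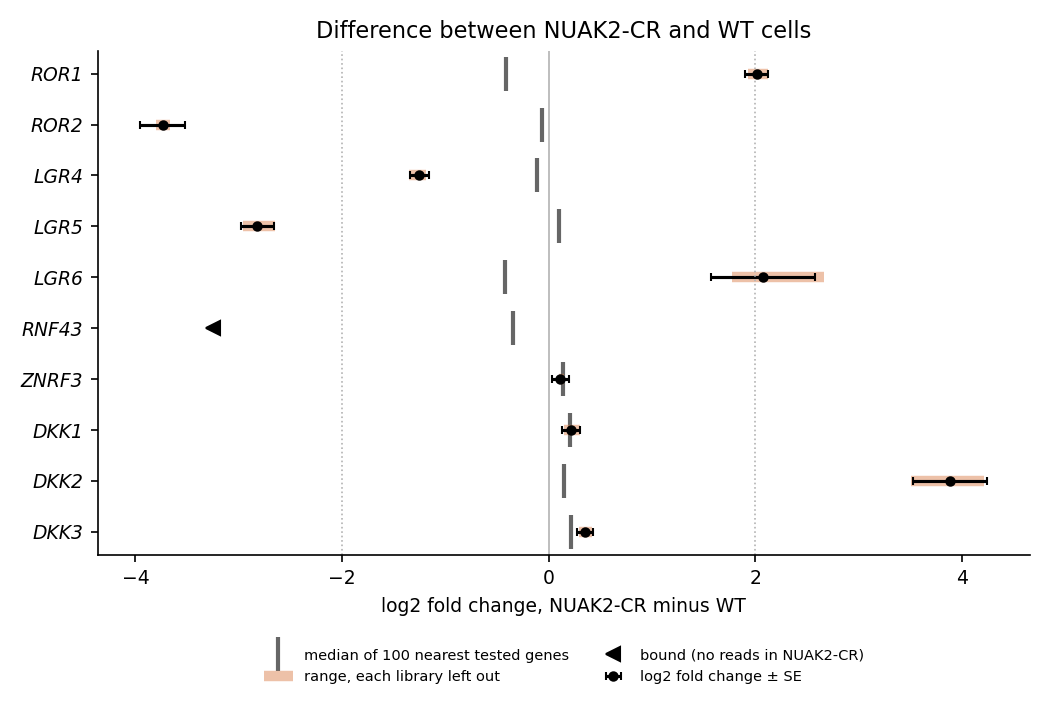
Log2 fold change (NUAK2-CR minus WT) of each gene with its SE, the range when each library is left out, and the median of the 100 tested genes that start nearest to it; dotted lines mark the DEG threshold of 2 in either direction, and the triangle for RNF43 is a bound. Of the genes with reads in both groups, ROR2 at -3.74 and DKK2 at 3.89 lie farthest from 0, while ZNRF3 and DKK1 lie on the median of their neighbours.

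Between genes, levels were compared per kilobase of transcript. The length was that of the transcript marked canonical for each gene, and the spread between libraries does not cover an error in it. In WT cells the order of the means from the highest was DKK3 at 172 CPM per kilobase, DKK1 at 47.3, LGR4 at 31.3, LGR5 at 4.53, ZNRF3 at 3.90, ROR2 at 1.57, ROR1 at 1.13, RNF43 at 0.20, DKK2 at 0.08 and LGR6 at 0.06. LGR5 and ZNRF3 overlapped between libraries, as did DKK2 and LGR6, so these neighbours were not apart beyond their spread. In NUAK2-CR cells the order was DKK3 at 220, DKK1 at 54.9, LGR4 at 13.1, ROR1 at 4.57 and ZNRF3 at 4.22. Then came DKK2 at 1.10, LGR5 at 0.64, LGR6 at 0.24, ROR2 at 0.12 and RNF43 at 0. No neighbours overlapped between libraries. However, ROR1 lay only 1.08-fold above ZNRF3, and without division by length ZNRF3 (1089 normalized counts) was above ROR1 (1003). The 3 highest genes kept their places, ROR1 and DKK2 moved up the order, and LGR5 and ROR2 moved down.

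**Figure D4:**
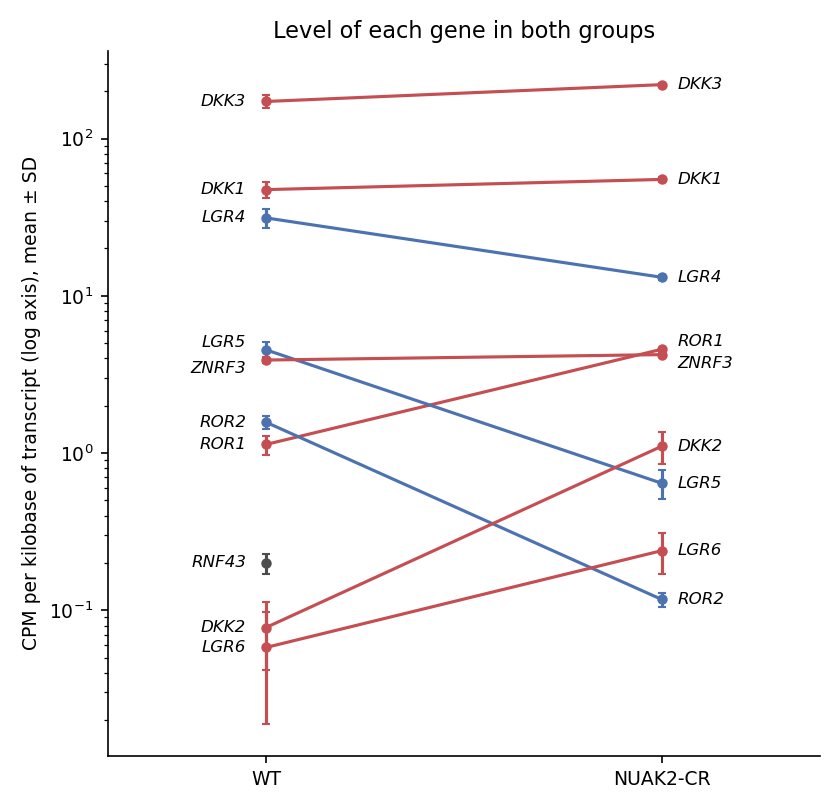
Level of each gene in CPM per kilobase of transcript (log axis) in WT and NUAK2-CR cells, mean ± SD of 3 libraries per group, joined by lines that are red where NUAK2-CR is higher and blue where it is lower. DKK3, DKK1 and LGR4 are the highest in both groups, ROR1 lies below ROR2 in WT and above it in NUAK2-CR on this scale, and RNF43, at 0 in NUAK2-CR, has no point there.

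The spread among WT libraries had a pattern of its own. WT replicate 1, the most deeply sequenced library, was the lowest WT library for 9 of the 10 genes, whereas it was the lowest for 37.7% of the tested genes, and LGR6 was the exception, with its lowest value in WT replicate 2.

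Genes near each gene on the chromosome were taken as a value beside it. The 100 tested genes that start nearest to ROR1 had a median log2 fold change of -0.41. For those nearest to LGR6, on the same chromosome, it was -0.42. The median over the 1540 other tested genes of chromosome 1 was -0.43. Both genes were thus higher where most neighbours were lower, but the low values were not particular to these stretches. PGM1, the tested gene before ROR1, had a log2 fold change of -0.47 and CACHD1, the one after it, of -1.46. Around RNF43 the median was -0.34, beside -0.38 over chromosome 17, and around the other 7 genes it ranged from -0.11 to 0.22. Against these medians of 100 genes, ZNRF3 (0.12 against 0.14) and DKK1 (0.22 against 0.20) stood within 0.03, and DKK3 (0.36 against 0.22) was close. Over the 20 nearest genes the medians were -0.20 around ZNRF3, 0.17 around DKK1 and 0.30 around DKK3, so ZNRF3 was close only in the wider window.

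The counting was run at default parameters, which for featureCounts take no account of strand, and no other strand setting is named. Strand therefore did not help to separate reads of a gene from those of its antisense partner where they overlap. ROR1-AS1 had 0, 0 and 2 reads in WT and none in NUAK2-CR libraries, and LGR4-AS1 had 9, 10 and 1 against 4, 3 and 0. TSPOAP1-AS1, which overlaps one end of RNF43, had 15, 13 and 14 reads in WT and 8, 6 and 3 in NUAK2-CR libraries, and ZNRF3-AS1 had 8, 17 and 7 against 7, 2 and 6. The antisense counts are small beside those of ROR1, LGR4 and ZNRF3, whereas TSPOAP1-AS1 had fewer reads than RNF43 in WT and, unlike RNF43, some reads in every NUAK2-CR library. Within a family the longest run of bases shared by any pair of transcripts was 18 bases, for RNF43 and ZNRF3, against reads of 100 bases.

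What surrounds these genes in the pathway was described with 63 other genes in 4 lists. The lists too were chosen with earlier results of these data known, so the shares that passed are a description. Of the 63 genes, 51 could be tested. Of those, 36 had an adjusted p under 0.05, 21 higher and 15 lower in NUAK2-CR. That was 70.6% of those tested, beside 54.5% of all tested genes. The median log2 fold change over the 51 was 0.10, against -0.01 over all tested genes, and 1 of the 51, APCDD1, was a DEG.

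Among the ligands and surface partners of the 10 genes, 5 of 9 tested members were called higher and none was called lower. Over all tested genes 26.3% were called higher and 28.2% lower. The other 6 members could not be tested. The share that passed, 55.6%, was close to the 54.5% of all tested genes. Of the R-spondins, the ligands of the LGR receptors, RSPO3 alone passed the filter on low counts. RSPO3 was at 14.6, 43.4 and 19.3 normalized counts in WT and at 29.2, 30.2 and 63.7 in NUAK2-CR libraries, with overlapping groups (log2 fold change 0.70, SE 0.47; edgeR's quasi-likelihood test with Benjamini-Hochberg adjustment, adjusted p = 0.231). RSPO1 had 1 read in one WT library, RSPO2 had 11 reads in one WT and 4 in one NUAK2-CR library, and RSPO4 had 2 reads in one NUAK2-CR library.

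The receptors that DKK1 and DKK2 bind were higher in NUAK2-CR cells. LRP5 rose from 2498 ± 202 to 4846 ± 169 normalized counts (SD, n = 3; log2 fold change 0.96, edgeR adjusted p = 4.58e-07) and LRP6 from 2166 ± 300 to 3161 ± 133 (log2 fold change 0.55, edgeR adjusted p = 0.000348). The kremens, which bind DKK proteins together with LRP6, rose too, KREMEN1 by a log2 fold change of 0.45 (edgeR adjusted p = 0.00242) and KREMEN2 by 1.47, from 93.1 ± 16.9 to 260 ± 26.7 (edgeR adjusted p = 2.58e-05). APCDD1, a membrane inhibitor of WNT signalling, rose from 436 ± 94.8 to 3620 ± 149 normalized counts (log2 fold change 3.07, SE 0.13; edgeR adjusted p = 2.82e-09). WT replicates were at 327, 486 and 496 and NUAK2-CR replicates at 3449, 3690 and 3721 for APCDD1, far apart in every library.

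All 8 tested Frizzleds, the receptors that RNF43 and ZNRF3 act on, rose, with a median log2 fold change of 0.62, against 26.3% of all tested genes with a higher call, and the other 2 of the 10 Frizzleds could not be tested. FZD8 rose most, from 212 ± 39.8 to 780 ± 40.4 normalized counts (SD, n = 3; log2 fold change 1.89, edgeR adjusted p = 2.03e-07). FZD4 rose by 1.62 (edgeR adjusted p = 2.92e-08) and FZD6 by 1.36 (edgeR adjusted p = 2.35e-06) on the log2 scale. Transcript levels do not show how much of each receptor was at the cell surface.

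In the list around the ROR receptors, 12 of 17 tested genes passed the test, or 70.6% beside 54.5% of all tested genes, 5 higher and 7 lower, with a median log2 fold change of -0.14. WNT5A, the main ROR ligand, was at 1744, 2026 and 1970 normalized counts in WT and at 1901, 1799 and 1978 in NUAK2-CR libraries, with a log2 fold change of -0.01 (SE 0.08; edgeR adjusted p = 0.892). Its close relative WNT5B rose from 731 ± 88.5 to 2906 ± 96.5 (SD, n = 3; log2 fold change 2.00, SE 0.09; edgeR adjusted p = 4.17e-09). Of the other WNT co-receptors, PTK7 rose by 0.55 (edgeR adjusted p = 3.22e-05), and RYK by 0.26 (edgeR adjusted p = 0.0439), a call lost in 5 of the 6 fits without a library, all but the one without WT replicate 2. The planar polarity genes PRICKLE2 and VANGL1 fell by 1.28 and 1.05 on the log2 scale (edgeR adjusted p = 3.62e-07 and 4.2e-07). SCRIB, a polarity scaffold, fell by 1.01 (edgeR adjusted p = 0.0134), but its groups overlapped and the call was lost with DESeq2 and in the fits without WT replicate 3 or without NUAK2-CR replicate 1 or 2.

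In the beta-catenin list, 11 of 17 tested genes passed the test, or 64.7% beside 54.5% of all tested genes, 3 higher (26.3% of all tested genes) and 8 lower (28.2%), with a median log2 fold change of -0.12. TNFRSF19, a receptor and WNT target, fell by 1.03 on the log2 scale, from 2378 ± 289 to 1163 ± 53.8 normalized counts (SD, n = 3; edgeR adjusted p = 1.5e-06). The remaining genes of this list that passed lay within a log2 fold change of 1 in either direction. Another WNT target in the list, SP5, fell by 0.77 (edgeR adjusted p = 0.0336). AXIN2, also a WNT target, was higher by 0.32 with overlapping groups and did not pass the test (edgeR adjusted p = 0.109).

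**Figure D5:**
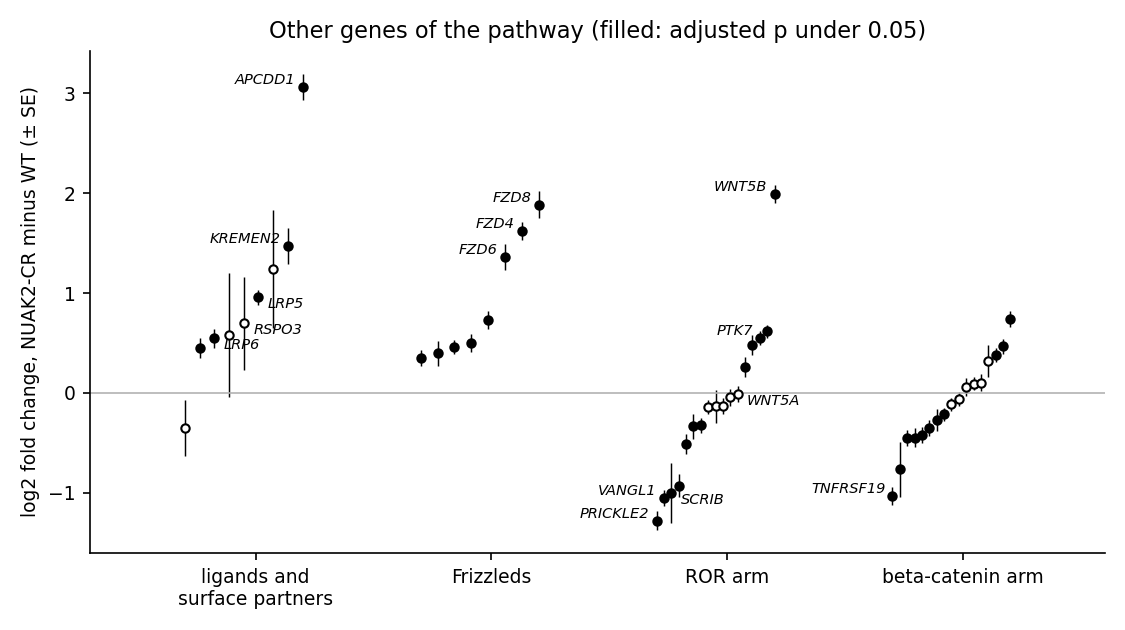
Log2 fold change (NUAK2-CR minus WT, ± SE) of the 51 tested pathway genes in 4 lists, filled where the adjusted p was under 0.05. All 8 Frizzleds lie above 0, APCDD1 at 3.07 stands highest, and the ROR and beta-catenin lists spread to both sides of 0.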

How the data were processed

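Total RNA of 3 WT and 3 NUAK2-CR samples of U251MG cells was made into stranded, polyadenylated RNA libraries. The authors used Trimmomatic for trimming, HISAT2 for alignment (hg38) and featureCounts for counting, each at its defaults, and the deposited values are the unnormalized counts; the annotation is not given in the sources used here, and no strand setting is named. Groups and replicate numbers were taken from the labels. Of the 28395 gene identifiers, 27745 matched a symbol and 650 did not, and 7516 genes had no count.

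Counts were fitted in R 4.3.3 with edgeR 4.0.16 (filterByExpr, TMM, quasi-likelihood test) on all 6 libraries, with Benjamini-Hochberg adjustment over 14873 genes, a prior count of 0.125 and a common biological coefficient of variation of 0.101. DEGs passed 0.05 on the adjusted p and 2 on the absolute log2 scale, the thresholds of the study. The fit was tested on simulated counts. DESeq2 1.42.0, other filters and scalings, a replicate block, a prior count of 2 and each library left out were the alternatives. Levels per kilobase used the length of the transcript marked canonical in GENCODE 44 for each of the 10 genes, and promoters came from RefSeq. Tables were joined with pandas 2.3.3 in Python 3.11.15, and plots were drawn with matplotlib 3.10.9. Replicate libraries differed by more than sampling noise, so none was counted as a duplicate. Where a library had no reads, 3 counts were taken as its upper limit.

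The 10 genes and all gene lists were chosen with earlier results of these data known. Named were the 10 genes, NUAK2, the R-spondins, LRP5, LRP6, the kremens, WNT5A, RYK, PTK7, genes overlapping one of the 10, and any other listed pathway gene called at 0.05 with a log2 fold change beyond 1 in either direction. PGM1 and CACHD1, named as neighbours of ROR1, the WNT targets SP5 and AXIN2, and the markers GFAP, NES, CD44, EGFR, SOX9, OLIG2, CD3E, MOG, SNAP25, SYT1, PECAM1 and KDR were named after their values had been seen. Same-numbered WT and NUAK2-CR libraries deviated from their group means with correlations of 0.043, -0.035 and 0.048, so the numbers did not pair the samples.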

Additional observations from a re-analysis of the deposited data

How the results depend on the processing

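The 10 genes kept the directions given above under every alternative in which they could be fitted. Since this contrast chose the 10 genes, the counts of them below describe the fits and test nothing. Their number with an adjusted p under 0.05 was 8 to 9 and their number of DEGs 4 to 6 when each library was left out in turn, and the number of higher DEGs among them was 1 to 3, being 1 without WT replicate 1, where ROR1 (1.93) and LGR6 (1.89) fell under the fold threshold. Requiring at least 10 counts in every library left 339 DEGs (187 higher, 152 lower) and, with RNF43, LGR6 and DKK2 removed by that filter, 3 of the 10 genes with an adjusted p under 0.05 and higher in NUAK2-CR, 3 DEGs among the 10 and 1 higher DEG. A threshold of 1 on the log2 scale gave 2062 DEGs (1027 higher, 1035 lower). Family shares from raw reads, without division by length, were 50.3% (WT) and 98.2% (NUAK2-CR) for ROR1, 88.6% and 94.7% for LGR4, 16.4% and 15.0% for DKK1, 83.5% and 84.3% for DKK3, and, in WT, 11.2% for LGR5 and 3.26% for RNF43. Over the 20 nearest genes the neighbour medians moved to -0.34 for LGR4, -0.20 for LGR5 and -0.20 for ZNRF3. The WNT5A difference changed sign, reaching -0.071 at the lowest and 0.027 at the highest when single libraries were left out. RSPO3 reached an adjusted p under 0.05 without WT replicate 2 (1.29). The fitted fold change of RNF43 depends on the prior count, -4.16 at 2. With the replicate number as a block, 8167 genes had an adjusted p under 0.05, with 9 of the 10 genes and 6 DEGs among them as before, and the pairing check gave no ground for that fit. The causes of these changes were not tested beyond what each alternative removes. Limits are the single comparison, the clone that cannot be told apart from the targeting, and counts under 50 per library for LGR6, RNF43, DKK2 in WT and ROR2 in NUAK2-CR.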
